A study of Mus musculus with 8 samples.

Results

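The 129 and CAST homologs of mouse chromosomes 12, 13 and 14 were followed through 262 windows of 1 Mb, counted from the first base of each chromosome (GRCm38). A window entered when it held a gene with at least 10 allelic reads in untreated XiΔXist cells, with genes placed by their start. This left 83 windows on chromosome 12, 101 on chromosome 13 and 78 on chromosome 14, out of 1910 such windows on all autosomes. The chromosomes themselves were chosen by measured values, because earlier results of these data showed unequal reads of their homologs in the hairpin pools, so the differences below are descriptions without a test. Of the windows that held listed genes, 89 were left out. At the threshold, 1 window entered with a best gene of 10 to 12 reads and 2 windows were left out with a best gene of 7 to 9 reads. A window held between 1 and 25 genes with enough reads, with a median of 4.

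RNA-seq reads had been assigned to alleles in mouse embryonic fibroblasts (MEFs), connective tissue cells grown from embryos. All 4 groups were female cells from clonal lines, labelled as the cross 129S1/SvImJ x CAST/EiJ, whereas the study's text names the 129 parent strain 129Sv4/Jae. They carried an inactive X chromosome (Xi) of 129 origin. WT cells had intact Xist, the noncoding RNA that coats the Xi. The other groups carried a deletion of Xist on the Xi (XiΔXist) and were either untreated, given a lentivirus that carries a short hairpin RNA of scrambled sequence (shSCR), or given lentiviruses with hairpins that target YY1, a transcription factor (shYY1). The transduced cells had been selected with puromycin, which the untreated cells had not. Each group had 2 samples, which the deposited counts joined into 1 pool, so no spread between replicates could be computed. Clones, passages and treatments differ between the pools as whole units and cannot be told apart here.

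In a diploid cell the maternal and the paternal homolog of an autosome are as a rule both transcribed, and in a cross of distant strains the sequence differences in the RNA tell them apart. Fibroblast lines kept in culture are known to gain or lose whole chromosomes or arms, and a stretch where only one homolog is left is known as loss of heterozygosity. Such a stretch is seen as a run of neighbouring genes that all shift to the same allele, whereas imprinting or allele-specific regulation acts on single genes or small clusters. In RNA from bulk cells, fewer copies of a homolog, less RNA per copy and a smaller share of cells that carry it cannot be told apart.

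Allelic reads numbered 24310035 for WT, 28329701 for untreated XiΔXist, 2393545 for shSCR and 2504345 for shYY1. In the windows the median was 3973, 5152.5, 306.5 and 328 reads, and a share could be given for 261, 262, 246 and 252 of the 262 windows. All 8 fibroblast markers examined had at least 10 reads in every pool, with sums of 5033 to 15386 RPM (reads per 1000000 autosomal allelic reads). Markers of leukocytes, epithelium, endothelium and skeletal muscle summed to 0 to 19.7 RPM, and the 4 muscle markers were at 0 in all pools. Xist, the deleted gene, had 35405 allelic reads in WT and 21, 0 and 6 in the XiΔXist pools.

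The 129 share is the percentage of allelic reads that came from the 129 allele, as the median over genes with at least 10 allelic reads in that pool. The level of an allele is its summed reads in RPM. A window was called balanced when its 129 share was 35% to 65%, 129 only at 95% or more and CAST only at 5% or less. Intervals are Wilson 95% confidence intervals for counting error alone.

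The homologs of chromosome 12 were balanced in the untreated cells and shifted to CAST in both hairpin pools. The median 129 share over the windows was 47.6% for WT, 49.7% for XiΔXist, 27.2% for shSCR and 27.3% for shYY1. Distal chromosome 13 shifted the other way, with medians of 44.4%, 51.9%, 67.8% and 69.8%. On proximal chromosome 14 the medians were 60.6%, 49.8%, 0% and 0%, so that the 129 allele had almost no reads left in the hairpin pools. Proximal chromosome 13 was read from the 129 allele in all 4 pools, with a median of 100% in each. Distal chromosome 14 leaned to 129 in all pools, with medians of 97.1%, 98.5%, 85.1% and 73.5%. Its hairpin medians moved with the choice of genes. They were 94.8% and 95.7% over genes in place of windows, 97.2% and 95.5% over windows with a minimum of 50 reads a gene, and 90.8% and 85.8% without pseudogenes and genes of ribosomal proteins, a choice made after seeing the data. The same order of the chromosomes was seen in shSCR and in shYY1, so the imbalance was present with the scrambled hairpin as well.

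**Figure D1:**
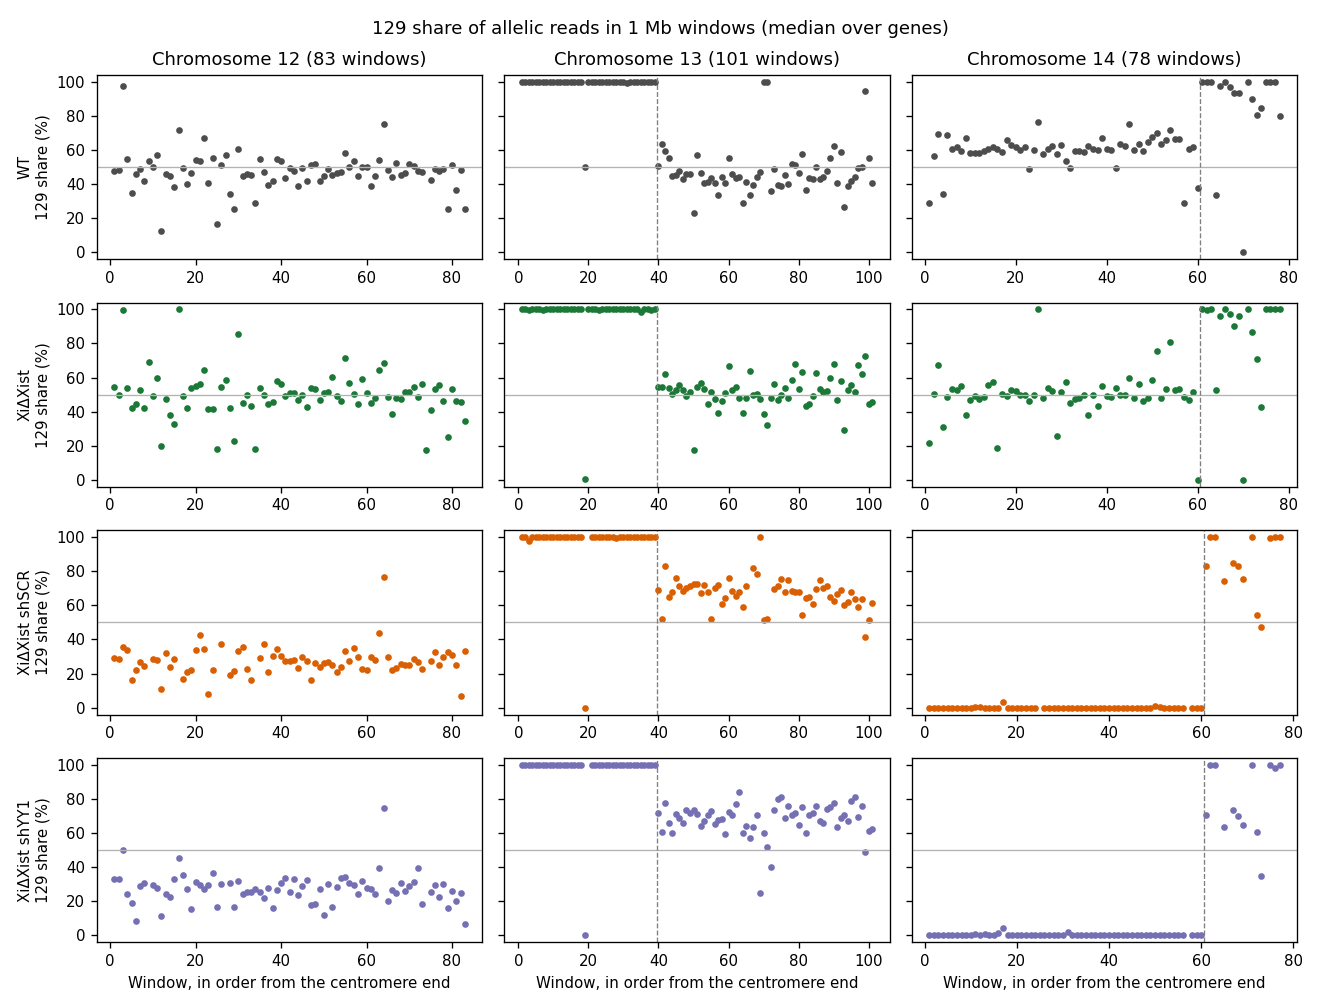
Each point is the 129 share (%, vertical axis) of a 1 Mb window, drawn in order along chromosomes 12, 13 and 14 (columns) in the 4 pools (rows), with a dashed line at the breakpoint of chromosomes 13 and 14. The 129 share of proximal chromosome 14 lies around 60.6% in WT and 49.8% in XiΔXist and at 0% in both hairpin pools, while the proximal windows of chromosome 13 lie at 100% in all pools apart from a window with an annotated pseudogene.

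Breakpoints were sought by splitting the row of window shares where the sum of absolute deviations from the medians was least, with at least 8 windows on each side and at least 15 percentage points between the sides. Chromosome 12 had no breakpoint in any pool. Chromosome 13 had 1 in each of the 4 pools, and it fell between the same windows in all of them. It separated 39 windows that ended at 49000000 from 62 windows that began at 49000001 in the untreated pools. With a share there were 38 and 60 in shSCR and 38 and 62 in shYY1. Chromosome 14 likewise had 1 in each pool, at the same place. In the untreated pools it lay between 60 windows that ended at 89000000 and 18 that began at 89000001. With a share there were 58 and 13 in shSCR and 59 and 13 in shYY1. Because the rule asks for 8 windows a side, it could not find another breakpoint among those 13 distal windows. The result with fewer windows a side is given below. The breakpoints of chromosomes 13 and 14 described here were present in WT cells, which carried neither the deletion nor a hairpin.

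Genes with at least 20 reads in every pool narrowed these positions. On chromosome 13, Fam120a (chr13:48879219-48968017, minus strand), which codes for an RNA-binding scaffold protein, had 0 CAST reads beside 207 129 reads in WT, and likewise 0 beside 205, 291 and 249 in the other pools. The next such gene was Fgd3 (chr13:49261554-49320311, minus strand), an exchange factor for a small GTPase, with a 129 share of 57.0% (WT), 66.7% (XiΔXist), 77.8% (shSCR) and 74.6% (shYY1). The switch from a single allele to both thus lay between the ends of these genes, in all pools alike. On chromosome 14 the last gene before the breakpoint was Tdrd3 (chr14:87416639-87545504, plus strand), a Tudor domain protein, with 129 shares of 61.6%, 51.6%, 0% and 0%. The first after it was the pseudogene Gm10110 (chr14:89896228-89899447), at 100%, 100%, 82.9% and 70.4%. Between them lay the protocadherin gene Pcdh20 (chr14:88464743-88471396), which was chosen after its values were seen. It had 1015 129 and 1701 CAST reads for WT, 0 and 16 for XiΔXist, 0 and 45 for shSCR and 0 and 50 for shYY1. Pcdh9 (chr14:93013410-93890679, minus strand), the next protein-coding gene with enough reads, had 0, 4, 0 and 0 CAST reads beside 1382, 1993, 78 and 73 129 reads.

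The starts of the nearest protein-coding genes with at least 20 reads in every pool are shown as landmarks on either side of the transitions. They do not place the transitions exactly. The gap was 294 kb between Fam120a and Fgd3 and 2351 kb between Tdrd3 and Gm10110, and Pcdh9 lies beyond Gm10110. Each line gives the 100 bases before the annotated start and, in the capital letter, the start itself, 5′ to 3′ on the strand of the gene, from RefSeq (GRCm38.p6). Entries were found for all 4 genes, Pcdh9 having 2 annotated starts of which the first listed is shown.
Fam120a, chr13:48968060-48968160, minus strand: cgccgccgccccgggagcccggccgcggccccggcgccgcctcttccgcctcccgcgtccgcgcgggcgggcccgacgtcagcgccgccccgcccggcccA
Fgd3, chr13:49309208-49309308, minus strand: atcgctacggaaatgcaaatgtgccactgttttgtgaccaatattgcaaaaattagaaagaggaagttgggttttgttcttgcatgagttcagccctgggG
Tdrd3, chr14:87416483-87416583, plus strand: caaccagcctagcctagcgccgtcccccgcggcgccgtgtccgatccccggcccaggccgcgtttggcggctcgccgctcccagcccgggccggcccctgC
Pcdh9, chr14:93890679-93890779, minus strand: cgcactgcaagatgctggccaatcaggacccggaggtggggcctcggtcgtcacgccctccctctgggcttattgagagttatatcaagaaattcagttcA
The RefSeq start of Fgd3 lies inside the gene as placed above, so it belongs to a shorter transcript. G and C made up 90.1% of the Fam120a stretch and 80.2% of the Tdrd3 stretch, against 42.6% for Fgd3 and 55.4% for Pcdh9.

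On chromosome 12 the shift ran along the whole chromosome. Balanced windows numbered 70 of 82 (WT), 69 of 83 (XiΔXist), 7 of 77 (shSCR) and 6 of 80 (shYY1). Most windows of the hairpin pools lay under 35%, with 69 of 77 in shSCR and 73 of 80 in shYY1, and none was CAST only. From XiΔXist to shSCR the share was lower by at least 20 points in 52 of 77 windows, against 8.43% of all autosomal windows. In shYY1 this held for 50 of 80 windows, against a background of 9.04%. The background includes these windows, and since they were chosen for the difference it is given for scale alone. From WT to XiΔXist no window of 82 was lower by that much and 2 were higher, against 3.01% and 2.06% of all windows.

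The genes of chromosome 12 shared the direction of the windows. Of 344 genes with enough reads in XiΔXist and shSCR, 318 had a lower 129 share in shSCR, 22 a higher one and 4 the same. In shYY1 it was 317 lower and 25 higher among 347. Such gene counts over all autosomes are not given here. Among windows of chromosome 12, 75 of 77 were lower in shSCR, against 551 of 1803 of all autosomal windows. In shYY1 77 of 80 were lower, against 553 of 1804. Actn1, which codes for the actin cross-linker alpha-actinin-1, had 129 shares of 49.1% (WT), 52.2% (XiΔXist), 23.0% (shSCR, 95% CI 20.6 to 25.5) and 28.4% (shYY1, 95% CI 26.1 to 31.0). The laminin chain gene Lamb1 was at 63.2%, 60.4%, 33.6% and 31.9%, and Rbm25, which codes for a splicing factor, at 46.2%, 49.2%, 24.2% and 23.8%. Each of these genes was read from both alleles in every pool, and in each the hairpin pools lay below both untreated pools.

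Not every gene took part. Hsp90aa1, a chaperone gene, already leaned to CAST and had 129 shares of 15.3%, 14.98%, 22.7% and 20.9%, higher in the hairpin pools. Hif1a, which codes for the oxygen-regulated transcription factor, was CAST only in all pools, with 9 129 reads of 7159 in WT and 16 of 10744 in XiΔXist, and with 0 of 288 in shSCR (a count of 0 allows up to 1.04%) and 0 of 340 in shYY1 (up to 0.882%). All 6 genes of chromosome 12 that were CAST only in XiΔXist and had 10 reads in each XiΔXist pool stayed so in both hairpin pools. The one window that stood at least 20 points from the median of the chromosome in both hairpin pools, of 77 with a share in both, began at 96000001 and held a processed pseudogene, Gm6863, chosen after its values were seen, at 74.9%, 68.6%, 76.6% and 74.7%. Reads of near-identical copies elsewhere may be counted in such genes.

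Yy1, the target of the hairpins, lies on chromosome 12 (chr12:108792973-108820148, plus strand). Its 129 and CAST reads were 667 and 871 (WT), 799 and 898 (XiΔXist), 65 and 172 (shSCR), and 31 and 61 (shYY1). Its 129 share was 43.4%, 47.1%, 27.4% (95% CI 22.1 to 33.4) and 33.7% (95% CI 24.9 to 43.8), so the gene followed its chromosome and the intervals of the hairpin pools overlapped. Its level was 82.0, 79.5, 161 and 62.5 RPM. Between untreated and hairpin pools total levels also moved with the GC content of the transcript, as given below, which limits that comparison. From shSCR to shYY1 the median log2 change of groups of genes by GC content stayed between -0.14 and 0.05.

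On distal chromosome 13 the shift was smaller and toward 129. Of its windows 54 of 62 were balanced in WT and in XiΔXist, 20 of 60 in shSCR and 17 of 62 in shYY1. Windows above 65% but under 95% numbered 39 in shSCR and 44 in shYY1, against 5 in XiΔXist and 1 in WT. The share was higher than in XiΔXist by at least 20 points in 19 of 60 windows in shSCR and in 21 of 62 in shYY1, against 5.93% and 6.37% of all autosomal windows. Lower shares by that much were found in 1 and 2 windows. The median change over the windows was 15.7 points in shSCR and 16.5 in shYY1. XiΔXist was itself above WT on this segment, by a median of 7.0 points. Here 53 of 62 windows were higher, against 664 of 1896 of all autosomal windows.

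Among genes of distal chromosome 13, 205 of 240 had a higher 129 share in shSCR than in XiΔXist and 33 a lower one. In shYY1 this was 208 and 33 of 243. Among windows of the segment, 54 of 60 were higher in shSCR, against 839 of 1803 of all autosomal windows. In shYY1 58 of 62 were higher, against 842 of 1804. Vcan, which codes for the matrix proteoglycan versican, had 129 shares of 45.8%, 65.4%, 76.7% and 80.5% in the 4 pools. The microtubule protein gene Map1b was at 47.0%, 69.7%, 72.0% and 75.5%, with levels of 358, 78.0, 1664 and 1312 RPM. For both genes the larger difference in share lay between WT and XiΔXist, and the hairpin pools were higher again. Gas1, a growth arrest gene named after its values were seen, had 129 shares of 18.3% and 17.5% in the untreated pools and of 72.0% and 73.2% in the hairpin pools.

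Single genes also departed from the segment before any hairpin. Ccnh, a cyclin of the CDK-activating kinase, and its overlapping neighbour Rasa1, a Ras GTPase activating protein, had 2 CAST reads each in WT beside 3256 and 1716 129 reads. In XiΔXist they had 7366 and 4951 129 reads and 10068 and 9135 CAST reads. In the hairpin pools their 129 shares were 55.8% and 69.6% for Ccnh and 46.8% and 51.0% for Rasa1. The only window at least 20 points from the segment median in both hairpin pools, of 60 with a share in both, began at 117000001 and held Emb, which codes for the adhesion protein embigin and was chosen likewise, at 94.8%, 72.7%, 41.4% and 48.7%.

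Proximal chromosome 13 stayed 129 only in 38 of 39 windows in WT and in XiΔXist and in 37 of 38 in each hairpin pool. CAST reads made up 0.659%, 0.574%, 0.614% and 0.660% of its allelic reads. Without pseudogenes and genes of ribosomal proteins, a choice made after seeing the data, they made up 0.111%, 0.111%, 0.141% and 0.173%. The processed pseudogene Gm11349, chosen after its values were seen, alone held 1032 of the 1827 CAST reads in WT and 71 of 140 in shSCR. Among named genes, Nid1, which codes for the basement membrane protein nidogen-1, had 16 CAST reads beside 42198 in WT and 0 beside 1488 in shSCR. The linker histone gene Hist1h1a had 97, 19, 965 and 980 129 reads and no CAST read in any pool. These counts were not scaled for depth. The hairpin pools held fewer reads in total, so the level differed from the untreated pools by more than the counts.

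Proximal chromosome 14 showed the most extreme shares. In WT 44 of 60 windows were balanced and in XiΔXist 51 of 60. In shSCR 58 of 58 windows and in shYY1 59 of 59 were CAST only. The highest window share was 3.33% in shSCR and 4.41% in shYY1. Against XiΔXist, 56 of 58 windows were lower by at least 20 points in shSCR and 57 of 59 in shYY1, against 8.43% and 9.04% of all autosomal windows. Of the 58 windows in shSCR 57 were lower than in XiΔXist by any amount and 1 was equal, and in shYY1 58 of 59 were lower and 1 was equal. The window that was equal, the last before the breakpoint, held Pcdh20 alone and was at 0% in XiΔXist already. Over all autosomes 551 of 1803 windows were lower by any amount in shSCR and 553 of 1804 in shYY1.

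Of 260 genes with enough reads in XiΔXist and shSCR, 258 had a lower 129 share in shSCR, 2 the same and 0 a higher one, and in shYY1 256 of 258 were lower. Arf4, a small GTPase gene of membrane traffic, had 10686 and 4658, 12571 and 8480, 1 and 473, and 3 and 584 reads of the 129 and the CAST allele, with the pools in the order used above. The polarity scaffold gene Dlg5 had 72 and 174 in XiΔXist, then 0 and 613 in shSCR and 0 and 465 in shYY1. For these genes the CAST reads remained in the hairpin pools while the 129 reads were at or near 0.

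Some genes that had been read only or mostly from 129 before were read from CAST in the hairpin pools. Loxl2, a lysyl oxidase that cross-links collagen, had 953 129 and 0 CAST reads in WT and 934 and 0 in XiΔXist. In shSCR it had 0 and 155 and in shYY1 2 and 294, so the gene was read from 129 alone in the untreated pools and almost only from CAST in the hairpin pools. Its CAST reads thus rose from 0 beside the drop of its 129 reads, and why was not tested. Of the 2 genes of the segment that were 129 only in XiΔXist and had 10 reads in each XiΔXist pool, Loxl2 was the 1 that became CAST only in both hairpin pools. Of the 10 genes above 65% but under 95% in XiΔXist, 8 were CAST only in both, among them, named after their values were seen, Anxa7, a calcium-binding annexin, and Bnip3l, a mitophagy receptor. Of 215 balanced genes 201 were CAST only in both.

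Few 129 reads remained on proximal chromosome 14. They numbered 247 of 24625 in shSCR (1.00%, 95% CI 0.886 to 1.14) and 389 of 24683 in shYY1 (1.58%, 95% CI 1.43 to 1.74). The processed pseudogene Gm6158, chosen in the same way, held 137 of them in shSCR and 164 in shYY1. Without pseudogenes and genes of ribosomal proteins, 78 of 23758 reads (0.328%, 95% CI 0.263 to 0.410) and 140 of 23795 (0.588%, 95% CI 0.499 to 0.694) were left. On proximal chromosome 13, CAST reads counted in the same way made up 0.111% to 0.173%. That is the other allele on another chromosome, and a floor for 129 reads was not measured. Among genes with at least 10 reads, 229 of 269 in shSCR and 204 of 266 in shYY1 had no 129 read.

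WT and XiΔXist also differed on proximal chromosome 14, before any hairpin. The 129 share was lower in XiΔXist in 54 of 60 windows, against 858 of 1896 of all autosomal windows. The median change was 10.4 points downward. It was lower by at least 20 points in 6 of 60 windows, against 3.01% of all autosomal windows. Among genes of the segment 287 of 337 were lower, and the same count over all autosomes is not given here. The CAST level was 1.78 times that of WT over the segment and the 129 level 1.15 times. It was higher by at least 1.5 times for CAST in 46 of 60 windows, against 7.75% of all autosomal windows.

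Distal chromosome 14 held a mixture. Of 24 genes that were 129 only in XiΔXist and had 10 reads in each XiΔXist pool, 17 stayed 129 only in both hairpin pools. Examples named after their values were seen were Tm9sf2 and Farp1. Tm9sf2, a membrane protein gene, had 9595 129 and 9 CAST reads in XiΔXist, 179 and 0 in shSCR and 215 and 0 in shYY1. Farp1, an exchange factor gene, had 339 and 0 in shSCR and 327 and 0 in shYY1. Genes with CAST reads lay between such genes. Mbnl2, which codes for a splicing regulator, had 24347 and 484 reads in XiΔXist, then 267 and 103 in shSCR and 329 and 108 in shYY1. Dnajc3 and Uggt2, neighbours that act in protein folding in the endoplasmic reticulum, had 129 shares of 64.2% and 81.0% in XiΔXist, 33.7% and 38.0% in shSCR and 28.5% and 32.1% in shYY1. Gpc6, a glypican of the cell surface, was at 86.7%, 54.4% and 60.4% in the same order. Of 33 genes with at least 20 reads in both hairpin pools, 11 had at least 20% CAST reads in both, while others had none.

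**Figure D2:**
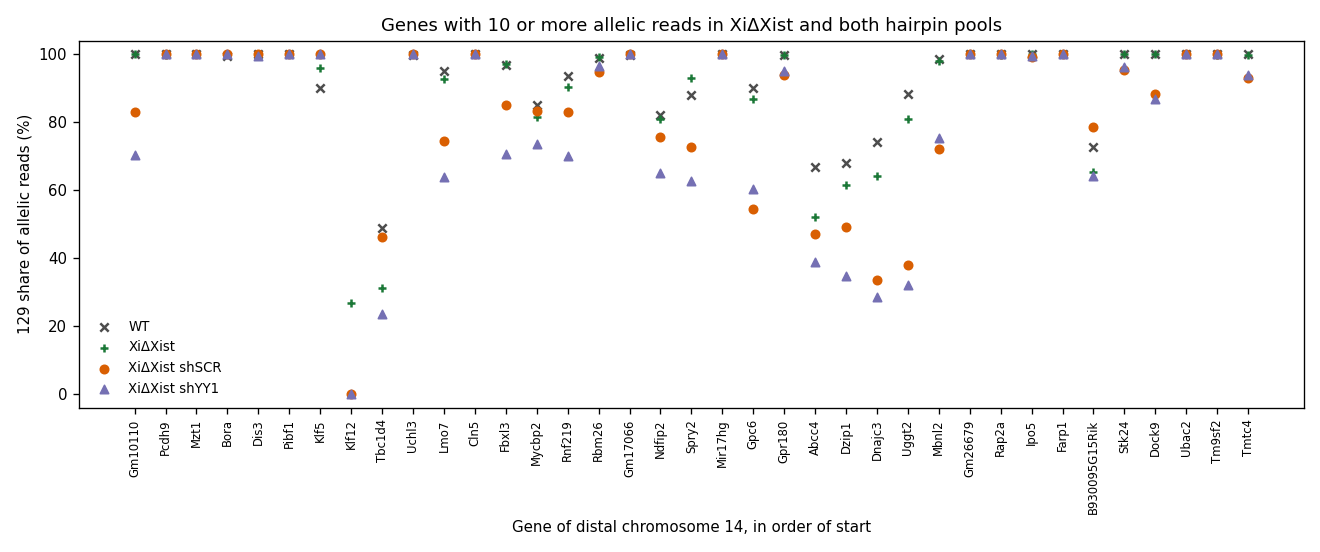
The 129 share (%) of the 37 genes of distal chromosome 14 with at least 10 allelic reads in XiΔXist and both hairpin pools is drawn in order of gene start, with 1 marker per pool (a pool under 10 reads has none). Genes at 100% in all pools stand beside genes such as Dnajc3, which lies at 33.7% in shSCR and 28.5% in shYY1.

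Levels were then compared to see which allele changed. On chromosome 12 the 129 level was 14915 RPM for WT, 17618 for XiΔXist, 8747 for shSCR and 8766 for shYY1, and the CAST level 16667, 17465, 22587 and 22410. The 129 level of the hairpin pools was 0.496 and 0.498 times that of XiΔXist and the CAST level 1.29 and 1.28 times. On distal chromosome 13 the CAST level was 0.396 and 0.407 times that of XiΔXist and the 129 level 0.846 and 0.940 times. On proximal chromosome 14 the 129 level was 13664 in XiΔXist, 168 in shSCR and 264 in shYY1, and the CAST level 13196, 16571 and 16492. There the CAST level of the hairpin pools was 1.26 and 1.25 times that of XiΔXist. In each of these segments the allele with the lower share thus had a lower level than in XiΔXist. On chromosome 12 and proximal chromosome 14 the summed level of the other allele was also higher. On proximal chromosome 14 this sum leaned on the window that began at 7000001, with 77.4 RPM of CAST in XiΔXist, 2008 in shSCR and 1819 in shYY1. The median log2 change of the CAST level over its windows was 0.09 in shSCR and 0.26 in shYY1.

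**Figure D3:**
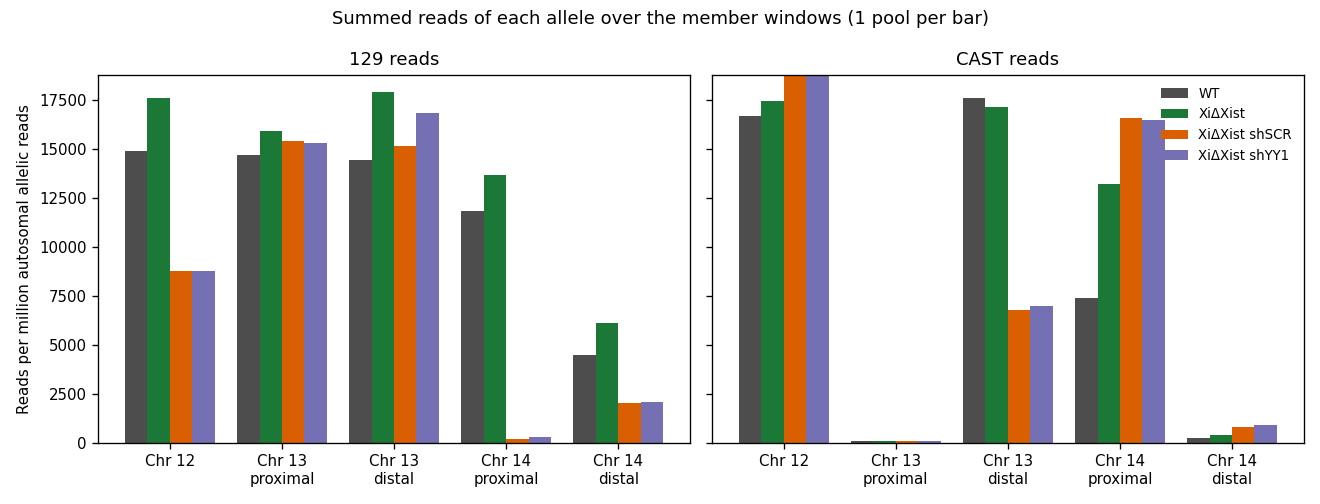
Bars give the summed 129 (left) and CAST (right) reads of the windows of each segment in RPM in the 4 pools, 1 pool per bar and no error bar. On proximal chromosome 14 the 129 bars stand at 13664 in XiΔXist, 168 in shSCR and 264 in shYY1, whereas the CAST bars stand at 13196, 16571 and 16492.

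Window by window, the 129 level of proximal chromosome 14 was at least 1.5 times lower in 58 of 60 windows in both hairpin pools, against 32.4% (shSCR) and 31.7% (shYY1) of all autosomal windows. On chromosome 12 this held for 43 and 42 of 83 windows. CAST levels were at least 1.5 times higher in 42 of 83 windows of chromosome 12 in each hairpin pool, against 30.9% and 31.9%. On proximal chromosome 14 this held for 21 (shSCR) and 22 (shYY1) of 60 windows, near that background. CAST levels were at least 1.5 times lower in 40 of 62 windows of distal chromosome 13 in each, against 29.2% and 28.5%. These backgrounds are high, and total levels moved with GC content between the untreated and the hairpin pools. Among autosomal genes sorted by the GC content of the transcript into 10 groups, the median log2 change of the total level ran from -1.05 in the lowest group to 4.35 in the highest in shSCR and from -0.98 to 4.23 in shYY1. Between WT and XiΔXist the same groups ran from -0.14 to -0.09. The 129 share of a gene compares alleles of the same transcript, and its change was near equal at low and high GC content. On chromosome 12 the median change in shSCR was -22.5 points among 172 genes at or below the median GC content and -23.5 among 172 above it, on distal chromosome 13 14.8 and 15.8, and on proximal chromosome 14 -49.3 and -50. In shYY1 the pairs were -22.5 and -22.6, 16.4 and 13.997, and -49.3 and -48.8.

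The change of each gene was therefore set against the median total change of genes with like GC content on the 16 other autosomes, a choice made after seeing the data. On proximal chromosome 14 the median gene then had 0.531 times the total level of XiΔXist in shSCR and 0.504 times in shYY1, with CAST levels of 1.06 and 0.996 times. The CAST allele was thus near its level in untreated XiΔXist, while the total was lower. On chromosome 12 the total was 0.972 and 0.957 times, with the 129 allele at 0.512 and 0.528 times and CAST at 1.28 and 1.30 times. On distal chromosome 13 the total was 0.673 and 0.749 times, with the 129 allele at 0.870 and 0.916 times and CAST at 0.490 and 0.445 times. Medians of the alleles were taken over genes read from both alleles in XiΔXist. On the 16 other autosomes, the 129 medians ran from 0.754 to 1.11 times in shSCR and from 0.780 to 1.11 in shYY1. The CAST medians ran from 0.509 to 1.04 times in shSCR and from 0.452 to 1.04 in shYY1. CAST on distal chromosome 13 was thus close to chromosome 2 (0.509 and 0.508 times) and chromosome 7 (0.530 and 0.452 times). On distal chromosome 14 the total was 0.370 and 0.390 times, over 44 and 43 genes. Proximal chromosome 13 stood at 1.04 and 1.11 times.

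On the 16 other autosomes the adjusted median log2 change of the total ran from -0.26 to 0.25 in shSCR and from -0.25 to 0.18 in shYY1. Chromosome 12, at -0.04 and -0.06, lay inside these ranges, while distal chromosome 13, at -0.57 and -0.42, and proximal chromosome 14, at -0.91 and -0.99, lay below them. Distal chromosome 14, at -1.44 and -1.36, lay further below. Between WT and XiΔXist, proximal chromosome 14 had an adjusted total change of 0.50 and the other autosomes -0.15 to 0.16. Distal chromosome 14, at 0.51, and proximal chromosome 13, at 0.25, were above that range as well. The total of both segments of chromosome 14 was therefore higher in XiΔXist than in WT and lower in the hairpin pools than in XiΔXist.

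**Figure D4:**
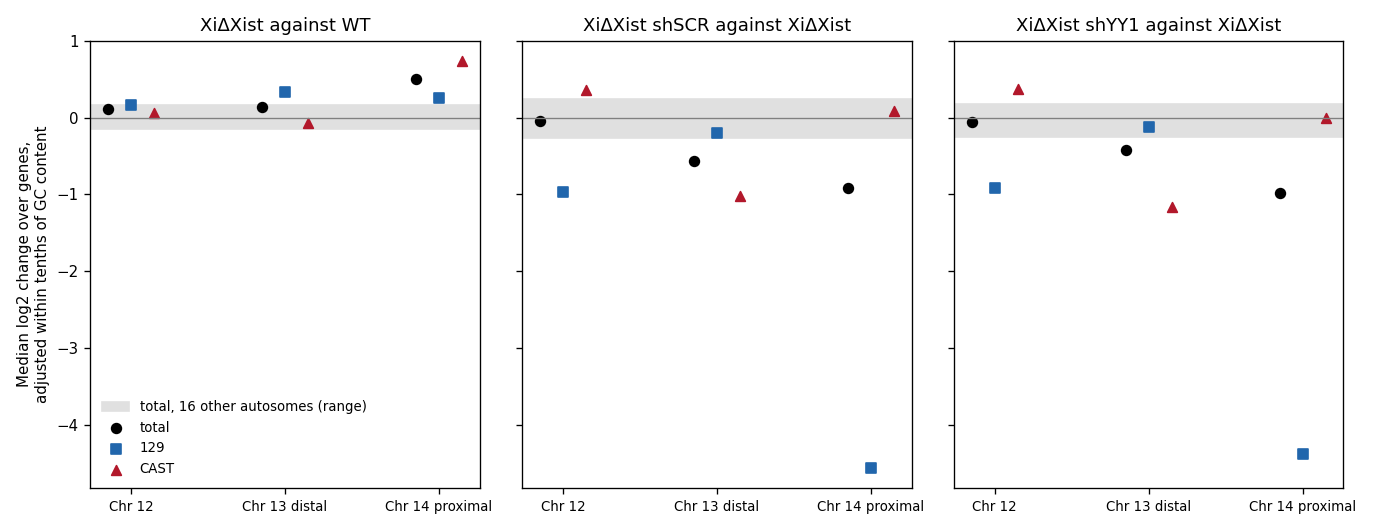
Points give the median log2 change over genes, adjusted for GC content, of the total (circles), 129 (squares) and CAST (triangles) level on chromosome 12, distal chromosome 13 and proximal chromosome 14 in 3 comparisons, and the grey band is the range of the total over 16 other autosomes. In shSCR and shYY1 proximal chromosome 14 lies at -0.91 and -0.99 in total, below the band, with CAST at 0.08 and -0.01.

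Other autosomes were examined in the same manner for windows that were balanced in XiΔXist, to set these shifts in scale. Among the 13 others with at least 10 such windows, the median change from XiΔXist to shSCR ran from -2.9 points on chromosome 8 to 27.4 on chromosome 7, with chromosome 2 at 22.9. The changes were -23.0 on chromosome 12, 15.8 on chromosome 13 and -49.8 on chromosome 14. Imbalance of comparable size was thus also seen in the balanced windows of chromosomes 2 and 7, toward 129. These were 27 of 152 windows on chromosome 2 and 13 of 109 on chromosome 7, a small part of each. Chromosomes 12, 13 and 14 had 69 of 83, 54 of 101 and 53 of 78 such windows. None of the 13 others was lower by as much as chromosomes 12 and 14. In shYY1 the changes of chromosomes 12, 13 and 14 were -23.2, 16.7 and -49.8, with 26.03 on chromosome 7. From WT to XiΔXist chromosomes 5 and 9 changed most, by -13.4 and 17.3 points, and chromosome 14 by -10.6.

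**Figure D5:**
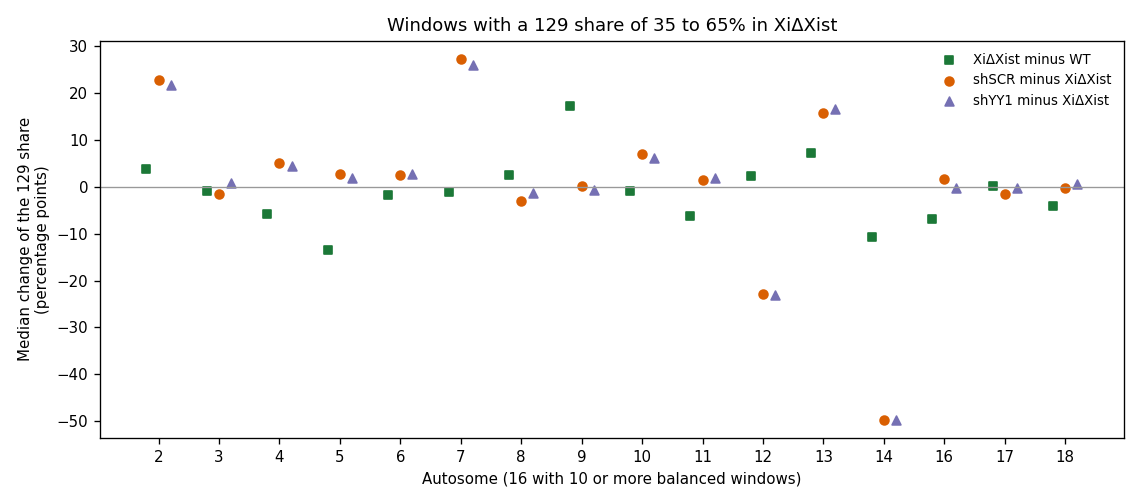
Points give the median change of the 129 share (percentage points) of windows balanced in XiΔXist for each of the 16 autosomes with at least 10 such windows, from WT to XiΔXist (squares) and from XiΔXist to shSCR (circles) and shYY1 (triangles). Chromosome 14 lies at -49.8 and chromosome 12 near -23.0 in both hairpin pools, and chromosomes 2, 7 and 13 lie above 15 in both.

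The hairpin pools differed little from each other. The median difference of shYY1 from shSCR over the windows was 0.40 points on chromosome 12, 1.65 on distal chromosome 13 and 0 on proximal chromosome 14. The share was lower by at least 20 points in 2 of the 246 windows with a share in both pools and higher in 3, against 1.51% and 1.29% of all autosomal windows. Both hairpin pools were compared with the same untreated pool, so their changes share its reads.

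Genes of 3 lists were read out along these segments. The lists were fixed with earlier results of these data known. Of 30 genes of the cell cycle, DNA repair and tumour suppression, 28 had enough reads in a pool. On chromosome 12 all 9 with enough reads in XiΔXist and shSCR had a lower 129 share in shSCR, against 318 of 344 of all its genes, and 7 of 8 in shYY1. On distal chromosome 13 all 12 had a higher share in shSCR and 11 of 12 in shYY1, against 205 of 240 and 208 of 243 of all genes of the segment. Ccnb1, the mitotic cyclin B1, had 129 shares of 54.5%, 59.3%, 69.95% and 76.9%, and the mismatch repair gene Msh3 45.9%, 52.3%, 68.1% and 74.5%. On proximal chromosome 14 all 3 were lower, against 258 of 260 and 256 of 258 of all its genes. The retinoblastoma gene Rb1 had 602 129 and 518 CAST reads in XiΔXist, 1 and 19 in shSCR and 0 and 21 in shYY1. These members followed the segment in which they lie.

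Of 30 genes of matrix, adhesion and fibroblast signalling, 25 had enough reads in a pool. All 6 on proximal chromosome 14 had a lower share in both hairpin pools, as had nearly all genes of the segment (258 of 260 in shSCR and 256 of 258 in shYY1). Mmp14, a membrane-bound metalloprotease, had 87 129 and 47 CAST reads in XiΔXist, 0 and 257 in shSCR and 0 and 293 in shYY1. Plau, which codes for urokinase, had 4911 and 11021, then 1 and 261, and 0 and 248. Wnt5a, a ligand of the Wnt family, had 2112 and 6822, then 0 and 94, and 1 and 78. On chromosome 12 all 5 measured in shSCR and all 4 in shYY1 were lower, against 318 of 344 and 317 of 347 of all its genes. On distal chromosome 13 members were split, with 1 lower and 1 higher in shSCR and 1 lower and 2 higher in shYY1.

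Imprinted genes, of which 4 of 8 had at least 10 reads in a pool, belonged to the Dlk1 to Meg3 cluster of distal chromosome 12. None had enough reads in both XiΔXist and a hairpin pool. The maternally expressed RNA gene Rian had 5892 129 and 12 CAST reads in WT, 0 and 2 in XiΔXist and none in the hairpin pools, and Meg3 had 161 129 reads in WT and no read elsewhere. Dlk1, a paternally expressed growth regulator, had 0 and 11 reads in WT, none in XiΔXist, 96 and 168 with shSCR and 94 and 160 with shYY1. In the hairpin pools Dlk1 was thus read from both alleles, with 129 shares of 36.4% and 37.0%.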

How the data were processed

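RNA-seq libraries of MEFs had been prepared with the KAPA RNA HyperPrep kit, and the methods text does not say how RNA was selected in any pool. Per the study's methods the authors pooled the replicates of a group and aligned them to a genome masked at positions that differ between 129S1/SvImJ and CAST/EiJ. They split reads by allele with SNPsplit and counted them per gene with featureCounts (1.6.3, GRCm38, also known as mm10). The annotation release and strand setting are not given in the sources used here. The deposited values are raw counts per Ensembl gene, 1 table per allele and pool, so only reads over a strain difference enter. Total reads per pool are given above, and lower depth widens the intervals of the hairpin pools.

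Positions came from GENCODE M21 (GRCm38), in which 45229 of 46078 gene IDs were found. The others held 0.0709% to 0.0925% of a pool's reads. Shares, levels with a pseudocount of 1 RPM, and breakpoints were computed in Python (3.11.15) using pandas (2.3.3), numpy (2.4.6) and scipy (1.17.1), with plots by matplotlib (3.10.9). Changes were described only, without a test, since pooled counts hold no replicates. GC content was that of the longest transcript, where the 2 pools compared held 50 or more reads of a gene in sum. Breakpoint finding was tested on simulated reads. Genes named are Yy1, list members, genes at breakpoints, the 5 with most hairpin reads per chromosome and up to 5 with at least 20% of reads from the other allele, beside those said to be chosen later. A gene that the rule names is not reported here. Members and lists were chosen with earlier results of these data known. Alternatives were other read minimums, gene sets, window sizes, thresholds, scalings, denominators and pseudocounts.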

Additional observations from a re-analysis of the deposited data

How the results depend on the processing

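Of 477 values recomputed under alternatives, 432 stayed within the 95% interval of the median over windows or, for counts, within 1.5 times, and 45 moved further. A change of sign was scored only for level changes whose median over windows was at least 1.5 times, and none of these reversed. Shares, counts, breakpoints and smaller level changes could not be scored as reversed. No paired analysis was possible because the deposited counts join the replicates of a group, and for the same reason no replicate could be left out.

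With 2 Mb windows there were 155 windows, of which 50 lay on chromosome 12, 57 on chromosome 13 and 48 on chromosome 14. With CAST reads scaled so that the median gene read from both alleles stood at 50%, the 129 shares in WT, XiΔXist, shSCR and shYY1 were 42.1%, 47.1%, 23.4% and 23.4% on chromosome 12 and 39.0%, 49.4%, 63.2% and 65.1% on distal chromosome 13, and proximal chromosome 14 was at 55.2% in WT and 47.3% in XiΔXist. With summed reads, proximal chromosome 13 was at 99.9401% in WT and 99.94% in XiΔXist, and proximal chromosome 14 at 0.297% in shYY1. At 30 points, 13 (shSCR) and 15 (shYY1) windows of chromosome 12 were lower and 5 and 5 of distal chromosome 13 higher, at 10 points 46 and 50 of distal chromosome 13, and with summed reads 11 in shYY1. With 4 windows a side, chromosome 14 had 2 breakpoints in shSCR and 2 in shYY1, the second inside its distal segment.

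As the median over genes, the log2 change from XiΔXist to shSCR and shYY1 was -0.28 and -0.19 for 129 on chromosome 12, -0.61 and -0.58 for CAST on distal chromosome 13, -2.82 and -2.62 for 129 and 0.68 and 0.69 for CAST on proximal chromosome 14, and 1.05 for CAST on chromosome 12 in shYY1. From WT to XiΔXist it was 0.22 for 129 on distal chromosome 13, and 0.11 for 129 and 0.54 for CAST on proximal chromosome 14. The 129 change of proximal chromosome 14 was -8.73 and -7.49 with a pseudocount of 0.1, -3.66 and -3.61 with 10, and -4.56 and -4.38 after the GC adjustment, against -6.35 and -6.11. The GC adjustment, chosen after seeing the data, gave 0.061 for CAST on chromosome 12 from WT to XiΔXist. Why these values moved was not tested. Depth limited the hairpin pools, whose windows held a median of 306.5 and 328 reads against 3973 and 5152.5 in the untreated pools.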
